A study of Mus musculus with 39 samples.

Results

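The immunoglobulin genes of mouse lung and colon are described here across 39 RNA libraries. The members were chosen by symbol and by measured level: they were the rows of both FPKM tables whose gene symbol belongs to a heavy constant (Igh), kappa (Igk) or lambda (Igl) constant or variable segment, or to the J chain, with pseudogenes left out. A row also had to reach 1 FPKM (fragments per kilobase of transcript, scaled to library size) in at least 4 libraries of either tissue. Of 55357 rows, 383 matched the symbols, 133 of these were pseudogenes, and 185 of the remaining 250 met the level. The members comprised 7 heavy constant genes, Igkc, 3 lambda constant genes, Jchain, 84 heavy variable, 84 kappa variable and 3 lambda variable genes and 1 heavy diversity segment (Ighd1-1). The last was Ighmbp2, a DNA and RNA helicase on chromosome 19 that is not an immunoglobulin gene and whose symbol shares the opening letters. The level was reached by 96 members in lung and by all 185 in colon. The 4 members just inside it, at 4 libraries, had highest colon values of 2.72 to 50.7 FPKM. The 4 rows just outside, at 3 libraries, had 1.67 to 4.13 FPKM.

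Antibodies consist of paired heavy and light chains, each with a variable region that binds antigen and a constant region. The constant region of the heavy chain sets the class. B cells carry surface IgM and IgD and may switch to IgG, IgA or IgE. Plasma cells, the secreting stage, are abundant in the gut wall, where most of them make IgA that is joined into dimers by the J chain and carried into the lumen. Each B cell clone uses 1 heavy and 1 light variable gene, so the relative use of variable genes describes the mixture of clones in a tissue.

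The groups were Cd177 knock-out (KO) and wild-type (WT) mice, both of C57BL/6N background, each with acute pancreatitis (AP) or with a sham operation. In lung there were 5 libraries each of KO AP, WT AP, KO sham and WT sham. In colon there were 4 of KO AP and 5 of each of the other groups. CD177 is a surface protein of neutrophils. The labels do not say how the deletion was made, how pancreatitis was induced or whether lung and colon libraries share animals. They do not call the replicates separate animals either, so p-values measure the spread between these samples.

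Cd177 was at 0 FPKM in all 19 KO libraries, against 1.3 to 4.18 FPKM in WT lungs and 38.5 to 76.4 FPKM in WT colons. The FPKM steps gave library totals, in units of 1000000 reads, of 77.0 to 95.4 in KO lungs, against 57.9 to 71.2 in WT lungs. In colon they were 77.7 to 98.6 in KO, against 55.6 to 78.3 in WT. The 111 members with a single annotated transcript had values that were all whole reads within 0.01 read. The genotypes also differed in how these steps were filled. Over single-transcript genes, values of 3 reads were 0.44 to 0.712 times as frequent as values of 2 reads in KO lungs, against 1.04 to 1.2 times in WT lungs. In colon the ratio was 0.554 to 0.769 in KO, against 1.02 to 1.23 in WT. This property of the values separates the genotypes completely, so its part in any KO and WT difference cannot be told apart from genotype. Within groups, 6 KO libraries and no WT library correlated below 0.94 on average with the other libraries of their group (lung KO AP replicate 3, lung KO sham replicates 4 and 5, colon KO AP replicates 1 and 4 and colon KO sham replicate 5).

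Sequences of the genes on which the isotype results turn show how alike the IgG genes are. The first constant exon of 3 IgG genes on chromosome 12 is given 5′ to 3′ from GENCODE M21 (GRCm38), with capitals where Ighg2b or Ighg1 differs from Ighg2c, since the IgG results turn on these genes.
Ighg2c: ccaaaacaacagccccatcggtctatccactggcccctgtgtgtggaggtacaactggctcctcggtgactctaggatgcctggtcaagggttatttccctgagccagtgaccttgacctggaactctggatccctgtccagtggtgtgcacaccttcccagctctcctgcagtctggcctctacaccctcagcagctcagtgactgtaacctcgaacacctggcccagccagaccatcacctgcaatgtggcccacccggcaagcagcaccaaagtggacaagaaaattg
Ighg2b: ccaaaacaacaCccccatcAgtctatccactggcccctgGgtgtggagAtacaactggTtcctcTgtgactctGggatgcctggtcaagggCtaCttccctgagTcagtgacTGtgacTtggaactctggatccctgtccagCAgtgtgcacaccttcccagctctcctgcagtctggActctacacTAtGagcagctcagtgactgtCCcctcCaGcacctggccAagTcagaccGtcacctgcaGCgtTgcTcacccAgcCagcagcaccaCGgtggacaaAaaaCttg
Ighg1: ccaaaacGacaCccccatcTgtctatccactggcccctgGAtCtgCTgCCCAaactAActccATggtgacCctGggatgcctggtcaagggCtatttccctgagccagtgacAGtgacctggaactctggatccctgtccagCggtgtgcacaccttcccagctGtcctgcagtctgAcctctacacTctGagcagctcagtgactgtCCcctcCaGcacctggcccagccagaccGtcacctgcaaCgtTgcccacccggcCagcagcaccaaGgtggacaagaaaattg
Over these 291 bases, Ighg2b differs from Ighg2c at 36 positions and Ighg1 differs at 35, and the longest stretch without a difference is 34 and 28 bases. Ighg3 differs from Ighg2c at 63 positions. Ighg1, Ighg2b and Ighg2c are thus about equally distant from each other in this exon. Only first exons of the IgG and lambda constant genes were compared, and no other constant members. Of these, Iglc2 and Iglc3 on chromosome 16 were most alike, with 303 of 315 aligned positions identical and a longest identical stretch of 79 bases. The first 300 bases of each are shown, with capitals where Iglc3 differs from Iglc2.
Iglc2: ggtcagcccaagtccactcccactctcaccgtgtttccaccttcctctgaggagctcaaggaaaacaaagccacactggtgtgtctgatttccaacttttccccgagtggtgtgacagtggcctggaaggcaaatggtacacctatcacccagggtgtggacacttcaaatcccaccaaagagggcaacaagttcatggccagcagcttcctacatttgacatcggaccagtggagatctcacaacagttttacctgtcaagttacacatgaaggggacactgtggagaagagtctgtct
Iglc3: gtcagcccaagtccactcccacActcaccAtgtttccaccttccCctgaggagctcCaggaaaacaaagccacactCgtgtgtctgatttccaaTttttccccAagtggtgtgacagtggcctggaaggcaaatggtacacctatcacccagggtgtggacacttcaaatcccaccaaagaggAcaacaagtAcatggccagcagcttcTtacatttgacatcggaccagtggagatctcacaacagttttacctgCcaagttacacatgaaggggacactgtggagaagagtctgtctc
Values of Iglc2 and Iglc3 are therefore uncertain as separate measurements. Variable genes form families of near copies. Of the 171 variable members, 69 (40.4%) share a stretch of 100 bases with another variable row and 16 (9.36%) share 150 bases. The sources used here give neither the read length nor the handling of reads that match several genes.

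IgA, made from Igha, was the leading heavy constant gene in 9 of 10 WT lungs and was lower in KO lungs in both treatments. It had 22.5, 10.6, 9.14, 11.5 and 11.1 FPKM in KO AP lungs, against 109, 91.9, 82.3, 102 and 152 FPKM in WT AP lungs. All 5 KO AP lungs lay below all 5 WT AP lungs, and the difference on the log2(FPKM + 1) scale was -3.0 (SE 0.46, adjusted p = 3.42e-05) by limma over 15978 genes. Under sham operation it had 5.52, 10.5, 17.7, 71.1 and 41.8 FPKM in KO sham lungs, against 51.1, 61.6, 36.9, 75 and 106 FPKM in WT sham lungs. These groups overlapped through KO replicates 4 and 5, with a difference of -1.57 (SE 0.46, adjusted p = 0.00712). In bulk tissue fewer B lineage cells and less RNA per cell cannot be told apart. Jchain, which joins IgA dimers and IgM pentamers, had 4.98, 2.23, 0.524, 2.84 and 2.04 FPKM in KO AP lungs, against 17.7, 12.4, 11.7, 12.3 and 19.5 FPKM in WT AP lungs, again without overlap, and its difference was -2.26 (SE 0.38, adjusted p = 7.91e-05). Its sham difference was -0.91 (SE 0.38, adjusted p = 0.0465) and missed the threshold in 16 of the 20 fits that left out 1 library.

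Igkc, the constant region shared by all kappa light chains, had 80.5, 50.4, 52.5, 30.6 and 10.4 FPKM in KO AP lungs, against 228, 188, 186, 227 and 198 FPKM in WT AP lungs. The KO AP lungs all lay below the WT AP lungs (difference -2.43, SE 0.58, adjusted p = 0.00158). In the sham groups Igkc ranged from 15.9 to 229 FPKM in KO lungs, against 66.0 to 189 FPKM in WT lungs, and its difference of -0.83 (SE 0.58, adjusted p = 0.222) did not pass. Without the lung libraries under the 0.94 correlation it was -1.77 and passed.

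Ighm and Ighd encode the classes of unswitched B cells. Ighm had 42.1, 27.6, 29.8, 21.3 and 11.1 FPKM in KO AP lungs, against 71.9, 47.8, 57, 47.3 and 28.4 FPKM in WT AP lungs. These groups overlapped (difference -0.97, SE 0.44, adjusted p = 0.0713). Ighm passed as lower on the TPM scale (-1.18, adjusted p = 0.0281), without immunoglobulin rows in the scaling (-1.17), with array weights (-1.09), without the libraries under the 0.94 correlation (-1.04) and without KO AP replicate 1, WT AP replicate 5 or replicate 1 of either sham group (-1.16 to -0.97), so this call depends on the setting. In sham lungs the Ighm difference was -0.04 (SE 0.44, adjusted p = 0.938). Ighd fell in KO AP lungs (difference -0.88, SE 0.35, adjusted p = 0.038), a call lost without any of KO AP replicates 1, 3 and 5 or WT AP replicates 3 and 4, with array weights (-0.68) or with no rule on low values, and its sham difference was 0.25 (SE 0.35, adjusted p = 0.546).

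The isotype make-up followed the same order. The IgA share of summed heavy constant FPKM was 30.4, 20.9, 19, 24.9 and 43.1% in KO AP lungs, against 50.8, 52.2, 44, 55.4 and 67.9% in WT AP lungs. The highest KO AP lung lay just below the lowest WT AP lung. IgM took 43.2 to 62.1% in KO AP lungs, against 12.7 to 33.6% in WT AP lungs, and these ranges did not overlap either. In sham lungs IgA took 22.8 to 47.0% in KO, against 28.1 to 67.5% in WT. WT sham replicate 1 had the lowest WT share and an Ighm value of 101.4 FPKM, where the other 4 had 24.1 to 29.1 FPKM.

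**Figure D1:**
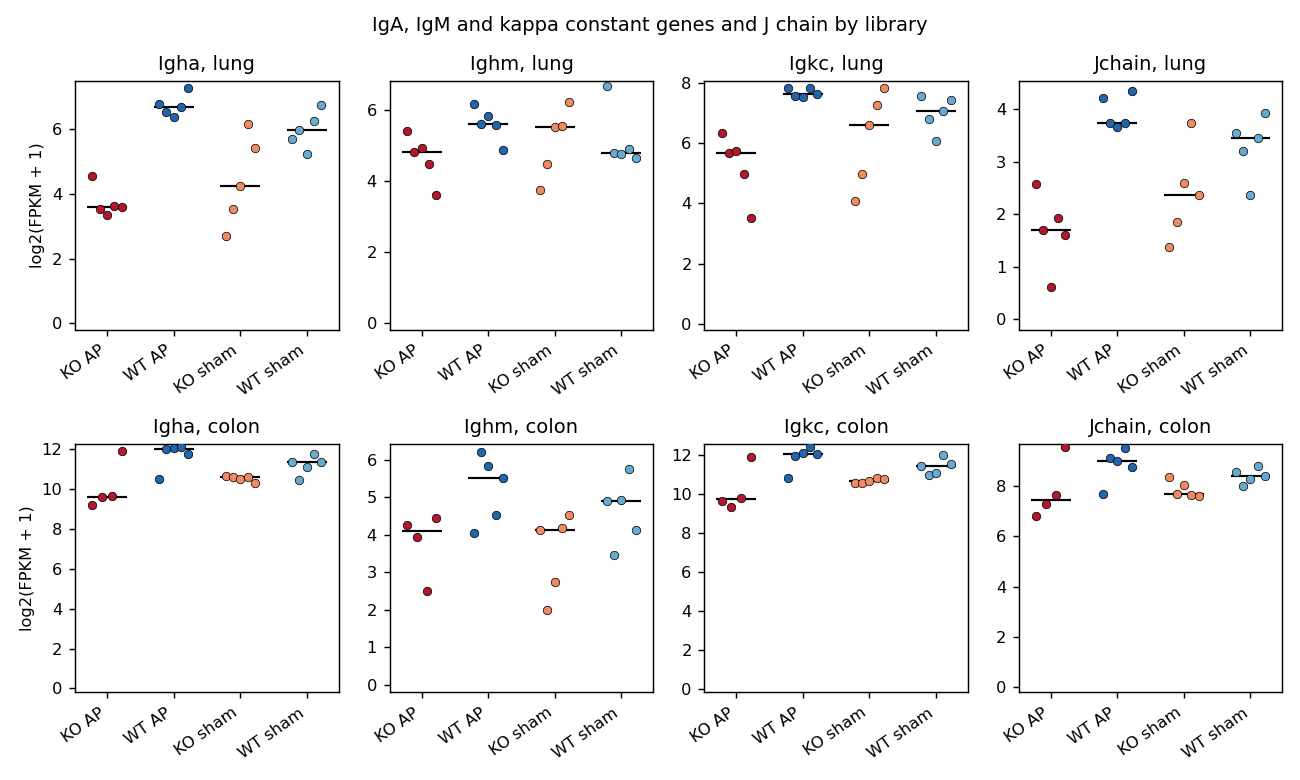
Igha, Ighm, Igkc and Jchain in each library of lung (top) and colon (bottom), as log2(FPKM + 1), by group; points are libraries and lines are medians. In lung, KO AP values of Igha, Igkc and Jchain lie below every WT AP value, and in colon KO AP replicate 5 lies far above the other 3 KO AP libraries for Igha, Igkc and Jchain.

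Ighg2b and Ighg2c, IgG subclasses that activate complement, had lower means in KO than in WT in both tissues and both treatments. In colon Ighg2c and Ighg3, and in lung all 4 IgG genes, reached 1 FPKM in at least 4 libraries only among WT. Such a gene had to be lower in KO to be tested at all, so its difference is given as a description, without a p-value. C57BL/6 mice carry Ighg2c where strains such as BALB/c carry Ighg2a. The values count reads assigned to the C57BL/6 gene, and whether the KO mice carry that allele was not tested. Whether the differences of the IgG genes differ from each other was not tested. In colon Ighg2c had 0.178, 0.557, 0.0468 and 0.704 FPKM in KO AP colons, against 33.1, 195, 217, 73.6 and 144 FPKM in WT AP colons. No KO AP colon reached 1 FPKM and all WT AP colons were far above it (difference -6.35, SE 1.02). Under sham operation it had 0.233, 0, 0, 0.612 and 104 FPKM in KO sham colons, against 83.4, 24.9, 87.6, 127 and 64.5 FPKM in WT sham colons. Thus 8 of 9 KO colons had at most 0.704 FPKM, while KO sham replicate 5 was within the WT range. The sham difference was -4.58 (SE 0.96) and -5.87 without that library.

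Ighg2b followed the same order. It had 6.69, 3.86, 1.84 and 11 FPKM in KO AP colons, against 40.2, 145, 119.7, 59.9 and 149.6 FPKM in WT AP colons, with a difference of -3.95 (SE 0.82, adjusted p = 0.0041). In sham colons it had 7.94, 1.27, 2.39, 5.03 and 80.4 FPKM in KO, against 92.1, 19.7, 84.4, 197 and 70.5 FPKM in WT, and the fifth KO value is again that of replicate 5. The sham difference was -3.21 (SE 0.77, adjusted p = 0.00513), or -4.05 without it. Ighg3, the subclass of T cell independent responses, differed by -1.95 (SE 0.53) in AP and by -1.72 (SE 0.50) in sham.

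Ighg1, the subclass linked to type 2 responses, had 7.59, 11.8, 55.9 and 81.3 FPKM in KO AP colons, against 13.1, 20.2, 5.05, 39.5 and 5.49 FPKM in WT AP colons. The ranges overlapped, and the difference was 0.97 (SE 0.87, adjusted p = 0.465). In sham colons it was 4.17 to 31.8 FPKM in KO, against 2.3 to 95.0 FPKM in WT (difference 0.44, SE 0.82, adjusted p = 0.71). Of all IgG FPKM, Ighg2b and Ighg2c together made up 38.6, 25.7, 3.25 and 12.6% in KO AP colons, against 84, 91.6, 92.4, 75 and 96.3% in WT AP colons. In the sham colons the share was 24.3, 8.4, 6.87, 23.9 and 96.8% in KO, against 92.7, 89.3, 91.4, 76.4 and 93.2% in WT. Only KO sham replicate 5 reached the WT values.

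The lung showed the same order at lower levels. Ighg2c had 0, 0.262, 1.18, 0 and 0.0533 FPKM in KO AP lungs, against 9.8, 13.5, 18.1, 1.96 and 17.8 FPKM in WT AP lungs (difference -3.16, SE 0.58). Ighg2b had 0.129, 0.432, 0.0817, 0.176 and 0.0774 FPKM in KO AP lungs, against 9.26, 7.63, 7.09, 3.21 and 13.3 FPKM in WT AP lungs (difference -2.85, SE 0.34). For both genes every KO AP lung lay below every WT AP lung. In sham lungs Ighg2c was at 0, 3.28, 0.0351, 10.3 and 0.492 FPKM in KO, against 4.19 to 14.4 FPKM in WT, with replicate 4 inside the WT range (difference -1.86, SE 0.58). Ighg2b was at 0 to 3.54 FPKM in KO sham lungs, against 2.89 to 5.92 FPKM in WT sham lungs (difference -1.83, SE 0.34). Without KO sham replicate 4 the sham differences were -2.42 for Ighg2c and -2.21 for Ighg2b. Ighg3 differed by -0.97 (SE 0.21) in AP and by -0.16 (SE 0.21) in sham. Ighg1 stayed under 1.51 FPKM in KO lungs, against 0.161 to 6.59 FPKM in WT lungs, with differences of -0.38 (SE 0.35) in AP and -0.66 (SE 0.35) in sham. Without WT sham replicate 3 or 5 the sham difference of Ighg1 was -0.91 or -0.85.

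**Figure D2:**
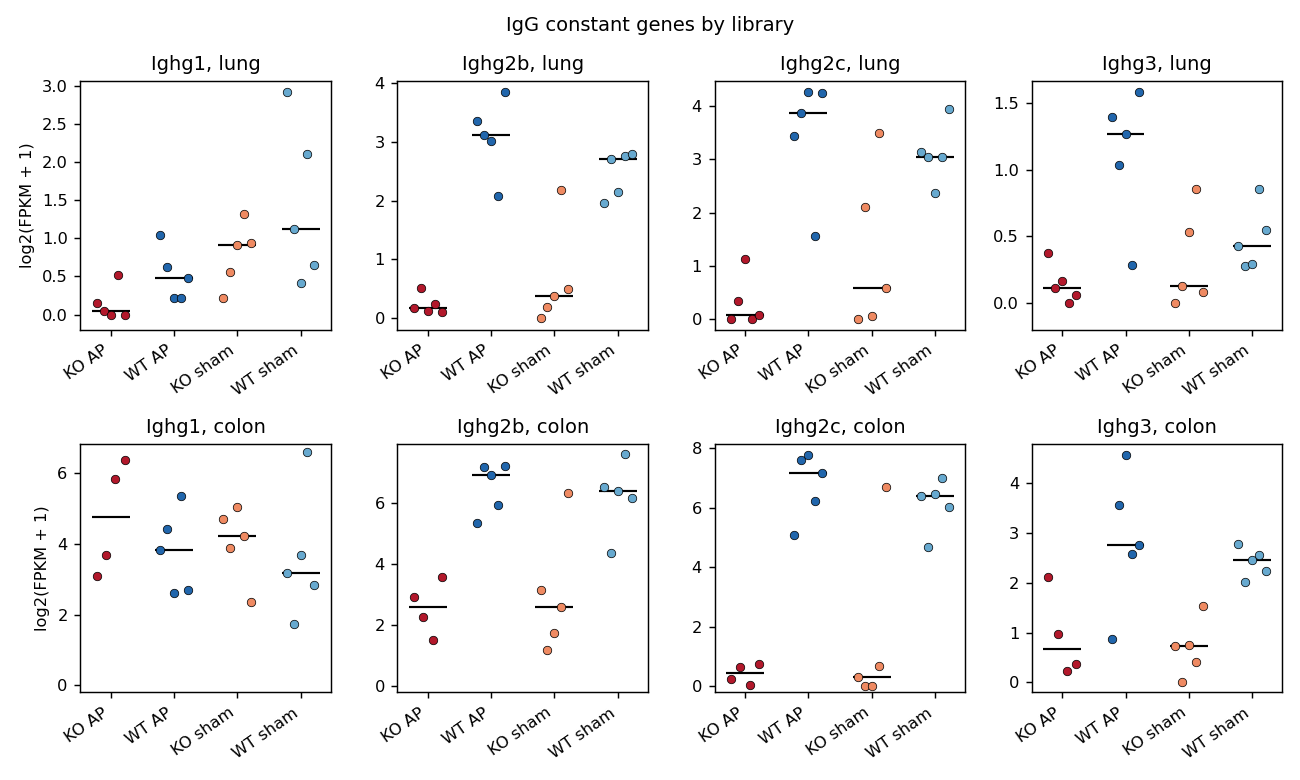
The 4 IgG constant genes in each library of lung (top) and colon (bottom), as log2(FPKM + 1), by group; points are libraries and lines are medians. Ighg2c is at or below 1.18 FPKM in every KO library except lung KO sham replicates 2 and 4 and colon KO sham replicate 5, and Ighg1 overlaps between the genotypes.

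In each tissue the KO library with the highest Ighg2c also had the highest T cell markers among KO libraries. The summed FPKM of 10 T cell genes was 89.2 in colon KO sham replicate 5, against 3.41 to 10.1 in the other 8 KO colons and 23.6 to 178 in WT colons. In lung it was 90.6 in KO sham replicate 4 and 56.4 in KO sham replicate 5, against 9.80 to 24.6 in the other 8 KO lungs and 39.8 to 135 in WT lungs. All 10 T cell genes passed as lower in KO in colon in both treatments and in AP lungs, and 5 of 10 in sham lungs. In sham lungs the differences of these 10 genes ran from -1.38 (Cd8a) to -0.20 (Cd3d). Of all genes, 10.9% passed as lower in AP colons, 15.4% in sham colons, 28.1% in AP lungs and 30% in sham lungs. The part of the T cell genes in the IgG differences was not tested.

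In colon, Igkc and Igha were the most abundant members by median. Igha had 585, 775, 798 and 3813 FPKM in KO AP colons, against 1481, 4139, 4274, 4495 and 3454 FPKM in WT AP colons. KO AP replicate 5 lay inside the WT range and the other 3 lay below it (difference -1.62, SE 0.44, adjusted p = 0.0176). The call was lost without KO AP replicate 3 or 4 and, with a value of -0.95, without the libraries under the 0.94 correlation. Of the KO AP colons, the latter fit kept only replicates 3 and 5, and replicate 5 had the highest Igha. In sham colons Igha ranged from 1264 to 1629 FPKM in KO, against 1413 to 3497 FPKM in WT (difference -0.68, SE 0.42, adjusted p = 0.224). Igkc had 817, 656, 888 and 3844 FPKM in KO AP colons, against 1839.8, 4081, 4520.3, 5582 and 4278 FPKM in WT AP colons (difference -1.71, SE 0.41, adjusted p = 0.0093). The Igkc call was lost at -1.26 without the libraries under the 0.94 correlation, again with only KO AP replicates 3 and 5 kept. Jchain did not pass in colon (log2 difference -1.0, SE 0.42, adjusted p = 0.108 in AP and -0.53, SE 0.40, adjusted p = 0.33 in sham), nor did Ighm (log2 difference -1.45, SE 0.58, adjusted p = 0.0897 in AP and -1.12, SE 0.55, adjusted p = 0.128 in sham) or Ighd (log2 difference 0.10, SE 0.76, adjusted p = 0.942 in AP and -0.56, SE 0.72, adjusted p = 0.582 in sham). Jchain in AP was -1.57 and passed without KO AP replicate 5. IgA made up 85.5 to 98.8% of heavy constant FPKM in KO colons, against 87.7 to 95.9% in WT colons, with the lowest KO share in KO sham replicate 5, where IgG reached 12.9%.

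Among the lambda constant genes, Iglc1 passed in 2 comparisons of KO with WT and Iglc2 in 1. Iglc1 fell in KO AP lungs (log2 difference -1.71, SE 0.50, adjusted p = 0.00726) and in KO sham colons (log2 difference -1.69, SE 0.51, adjusted p = 0.0183). The colon call was lost without WT sham replicate 1. Iglc2 had 10.0, 9.95, 6.14, 5.92 and 3.3 FPKM in KO AP lungs, against 14.7, 13.2, 16.2, 26 and 7.51 FPKM in WT AP lungs (difference -1.02, SE 0.33, adjusted p = 0.0125). Iglc3, its near copy, had 8.02, 11.9, 6.84, 7.62 and 3.08 FPKM in KO AP lungs, against 8.21, 8.61, 14.9, 19.3 and 6.09 FPKM in WT AP lungs, and did not pass (log2 difference -0.53, SE 0.35, adjusted p = 0.198). None of the 3 passed in sham lungs or in AP colons, where the differences ran from -1.49 to 0.30. Iglc1 did pass in AP colons without immunoglobulin rows in the scaling (-1.65) or without WT AP replicate 3 (-1.86). It passed in sham lungs without the libraries under the 0.94 correlation (-1.23). In sham colons Iglc3 passed with array weights (-1.29) or the replicate block (-1.24), among other settings, and Iglc2 without KO AP replicate 5 (-0.98). These calls thus depend on the setting. The lambda share of light chain constant FPKM was 20.7, 36.5, 20.6, 34.7 and 39.8% in KO AP lungs, against 12, 15.7, 17.7, 20.8 and 8.44% in WT AP lungs. The ranges met at 20.6% in the lowest KO AP lung and 20.8% in the highest WT AP lung. In colon the share was 3.84 to 17.5% in KO, against 3.45 to 14% in WT.

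Variable genes were lower in KO in almost every case where they passed, but the level rule bears on this. Of 83 variable members tested in lung, 1 reached 1 FPKM in at least 4 KO libraries, whereas 81 did so in WT libraries, and 61 reached 1 FPKM in no KO lung. Members that passed the level through WT alone had to be lower in KO, so their counts describe the members and support nothing. In colon 111 of 171 variable members met the level in KO libraries and 170 in WT libraries. The share of all genes that passed as lower in KO was 28.1% in AP lungs, 30% in sham lungs, 10.9% in AP colons and 15.4% in sham colons. In either direction, 55.8%, 58.8%, 18.3% and 31.4% passed, and as higher in KO 27.6%, 28.8%, 7.37% and 16%, in the same order. On the TPM scale the split of all genes was 2965 higher and 5492 lower in AP lungs, against 4412 and 4496 on the FPKM scale, and 2891 and 6209 in sham lungs, against 4606 and 4787. In colon it was 541 and 1762 in AP, against 1106 and 1637, and 1249 and 2683 in sham, against 2398 and 2306. Of all members tested, 91 of 96 were lower in AP lungs and 77 in sham lungs, and 124 of 185 were lower in AP colons and 88 in sham colons. The median log2 difference over all genes was 0.00 in AP lungs and -0.01 in sham lungs, and -0.01 and 0.01 in AP and sham colons. The median over members was -1.47 and -1.14 in AP and sham lungs and -2.34 and -1.57 in AP and sham colons. Ighmbp2, the non-immunoglobulin gene, differed by -0.03 and 0.03 in lung and by -0.23 and -0.18 in colon and passed nowhere.

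**Figure D3:**
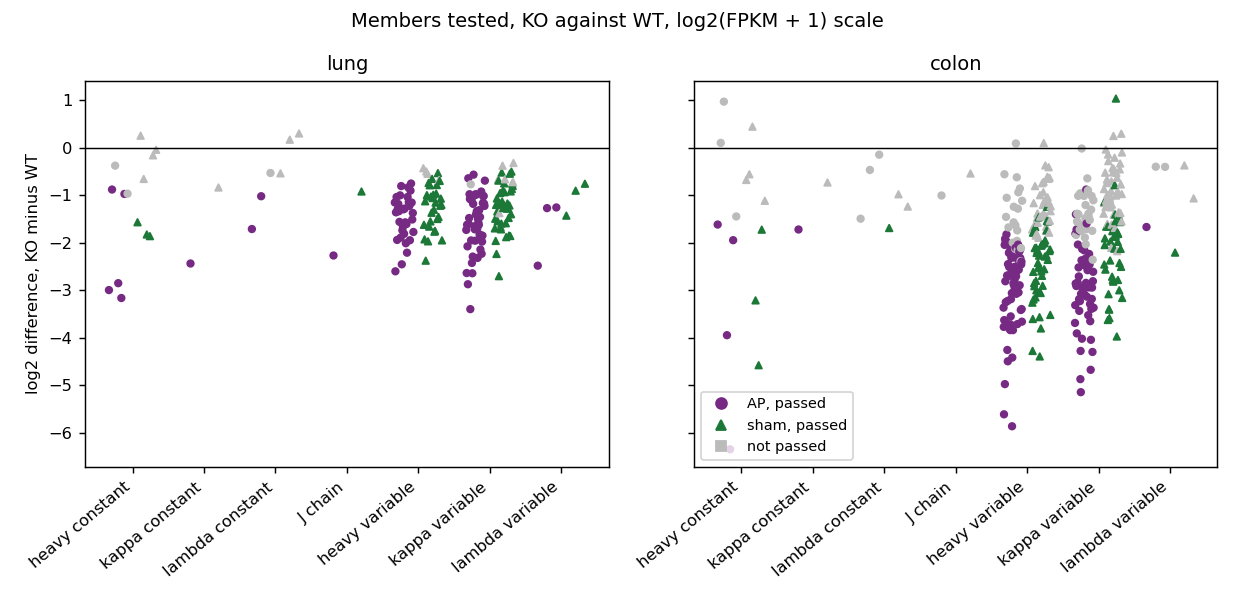
Difference of each tested member between KO and WT on the log2(FPKM + 1) scale, by gene class, in lung and colon; circles are AP and triangles are sham, coloured where the adjusted p is under 0.05. Most variable genes lie below 0 in both tissues, 1 kappa gene in sham colon lies above it and passed, and in lung the variable genes drawn met the level almost entirely through WT libraries.

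None of the 33 heavy and 47 kappa variable genes tested in lung reached the level in KO libraries, so their differences are described without a test. The most negative in AP were those of Igkv14-111, Igkv10-96 and Igkv17-127. Igkv14-111 had 0.523, 0, 0.171, 0.323 and 0 FPKM in KO AP lungs, against 14.9, 16.9, 12.6, 2.07 and 24.9 FPKM in WT AP lungs (difference -3.40, SE 0.44). Igkv17-127 was at 0 FPKM in all 5 KO AP lungs, against 8.8, 4.79, 4.65, 2.83 and 6.74 FPKM in WT AP lungs. WT AP replicate 4 was the lowest WT AP library for all 3 genes. In sham lungs the most negative were those of Igkv14-111 (-2.70), Ighv1-26 (-2.38) and Igkv10-96 (-2.24). Ighv1-26 had 0, 0, 0, 0.805 and 0 FPKM in KO sham lungs, against 4.48, 2.95, 2.41, 9.29 and 8.02 FPKM in WT sham lungs. At these levels 1 read of a variable gene was worth 0.0209 to 0.0374 FPKM in KO lungs, against 0.0280 to 0.0498 FPKM in WT lungs.

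In colon the largest AP falls were those of Ighv1-81, Ighv1-18 and Igkv19-93. Ighv1-81 had 0.472, 0.289, 1.04 and 4.29 FPKM in KO AP colons, against 51, 162, 157, 121 and 177 FPKM in WT AP colons (difference -5.86, SE 0.64, adjusted p = 8.37e-05). Ighv1-18 was at 0, 0.376, 1.36 and 0 FPKM in KO AP colons, against 17.3, 121, 157, 38.7 and 85.7 FPKM in WT AP colons (difference -5.61, SE 0.63, adjusted p = 0.000101). In neither case did the groups overlap. Igkv19-93 fell by 5.15 on the log2 scale. The largest sham falls were those of Ighv1-76 (-4.39), Ighv1-18 (-4.28) and Igkv4-91 (-3.97). Igkv4-79 was the 1 member that rose, where 16% of all genes were higher in KO sham colons. It had 3.13, 2.19, 2.36, 1.26 and 1.91 FPKM in KO sham colons, against 0.329, 0.151, 0.328, 0.845 and 1.15 FPKM in WT sham colons (difference 1.04, SE 0.30, adjusted p = 0.0159), and in AP colons it was at 0 to 2.19 FPKM in KO, against 0.680 to 2.57 FPKM in WT.

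The second exon of Ighv1-81, which encodes most of the variable domain, is shown with that of Ighv1-26, the heavy variable gene with the highest mean share over all 19 colon libraries. Both lie on chromosome 12 (GENCODE M21, GRCm38), and 46 of the 305 bases of the exon differ. The first 300 bases are shown, with capitals where Ighv1-26 differs from Ighv1-81.
Ighv1-81: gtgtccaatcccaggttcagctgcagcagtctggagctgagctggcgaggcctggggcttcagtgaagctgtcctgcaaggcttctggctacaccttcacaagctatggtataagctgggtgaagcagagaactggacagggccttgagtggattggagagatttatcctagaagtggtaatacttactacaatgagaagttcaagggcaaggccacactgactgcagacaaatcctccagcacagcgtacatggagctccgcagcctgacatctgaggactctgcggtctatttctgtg
Ighv1-26: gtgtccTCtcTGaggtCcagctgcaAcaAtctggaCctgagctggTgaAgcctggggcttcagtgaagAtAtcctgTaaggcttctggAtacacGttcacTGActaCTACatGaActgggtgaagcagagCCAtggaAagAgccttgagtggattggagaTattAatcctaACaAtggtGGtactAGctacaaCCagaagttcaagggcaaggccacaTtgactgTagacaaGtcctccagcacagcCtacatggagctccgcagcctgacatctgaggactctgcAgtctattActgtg
The longest stretch that these exons share without a difference is 38 bases.

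Variable FPKM was low in KO also relative to the constant gene of the same chain, a ratio formed within each library. Summed heavy variable FPKM per summed heavy constant FPKM was 0.0427, 0.0245, 0.105, 0.00916 and 0.0514 in KO AP lungs, against 0.597, 0.524, 0.658, 0.177 and 0.716 in WT AP lungs. In sham lungs it was 0.00259, 0.0114, 0.054, 0.0773 and 0.0118 in KO, against 0.546, 0.649, 0.596, 0.731 and 0.567 in WT. Every KO lung lay below every WT lung. For kappa the ratio was 0.0455 to 0.299 in KO lungs, against 0.253 to 1.06 in WT lungs. WT AP replicate 4 was the lowest of these, and the other 9 WT lungs had 0.773 to 1.06. With all matched rows that are no pseudogene, regardless of level, the heavy ratio was 0.00259 to 0.115 in KO lungs, against 0.178 to 0.748 in WT lungs.

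In colon the heavy ratio was 0.138, 0.045, 0.0702 and 0.0462 in KO AP colons, against 0.283, 0.664, 0.678, 0.206 and 0.357 in WT AP colons. In sham colons it was 0.139, 0.0778, 0.126, 0.169 and 0.279 in KO, against 0.624, 0.25, 0.776, 0.589 and 0.613 in WT. WT AP replicates 1 and 4 and WT sham replicate 2 were low among WT, and KO sham replicate 5 was the highest KO colon and lay above 2 of those 3. The kappa ratio was 0.120 to 0.415 in KO colons, against 0.303 to 0.929 in WT colons, and the lambda ratio 0.286 to 0.748 in KO, against 0.360 to 1.02 in WT. T cell receptor genes, which are also assembled from variable and constant segments but are no members, gave a low ratio in KO too. Their beta chain ratio was 0 to 0.149 in KO lungs, against 0.0809 to 0.580 in WT lungs, and 0 to 0.309 in KO colons, against 0.141 to 0.545 in WT colons. KO and WT libraries also differ in how the read steps were filled, and the part of this in the ratios cannot be told apart from genotype.

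**Figure D4:**
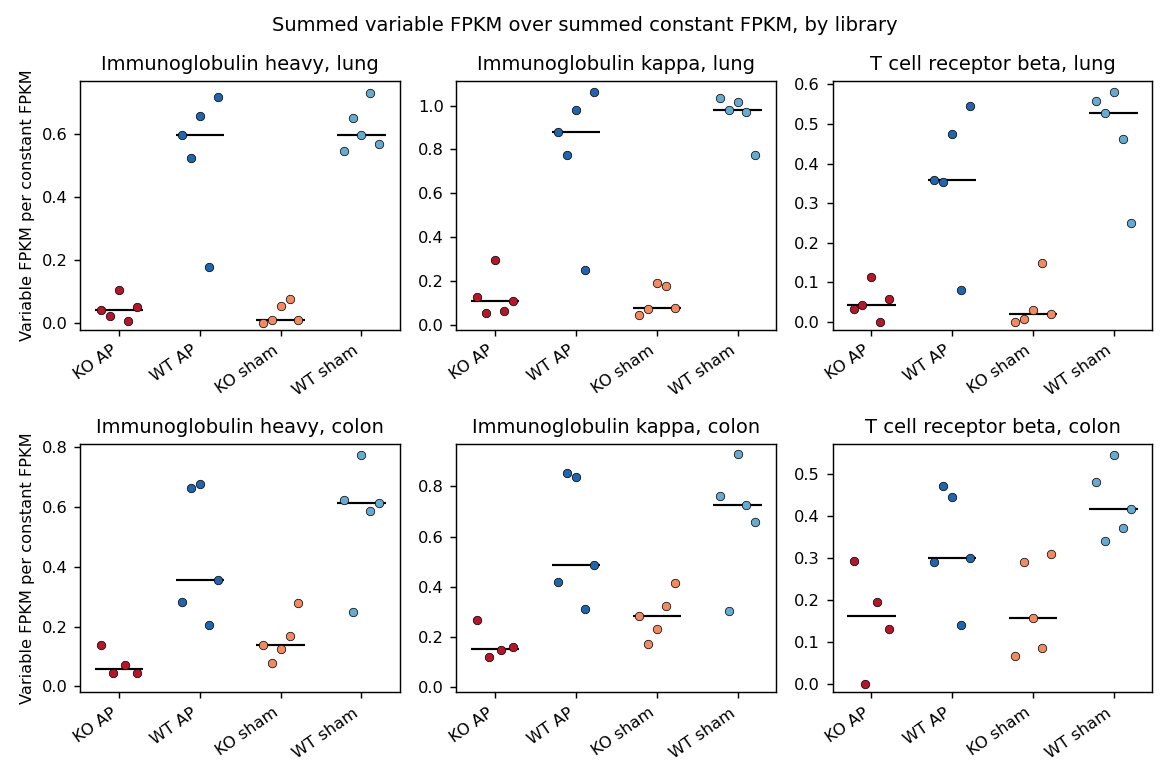
Summed variable FPKM over summed constant FPKM for immunoglobulin heavy and kappa chains and for the T cell receptor beta chain, in lung (top) and colon (bottom), by group; points are libraries and lines are medians. KO libraries lie at 0.00259 to 0.105 for heavy chains in lung, below all WT libraries at 0.177 to 0.731, and the T cell receptor shows a similar order with overlap.

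The number of variable genes seen was small in KO lungs. Of the 84 heavy variable members, 4, 4, 10, 2 and 6 were above 0 in KO AP lungs, against 76, 75, 77, 48 and 74 in WT AP lungs. In sham lungs the counts were 1, 5, 15, 27 and 3 in KO, against 71, 62, 64, 70 and 73 in WT. The recovered reads behind all single-transcript variable members numbered 22 to 1060 per KO lung, against 1721 to 6676 per WT lung, so shares in KO lungs rest on few reads and only WT lungs allow a description of gene use. In colon they numbered 4485 to 32306 per KO library, against 15588 to 136876 per WT library.

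The effective number of heavy variable genes (the exponential of the Shannon entropy of their shares) was 36.1 to 52.7 in WT lungs. In colon it was 27.5 to 44.6 in KO, against 39.7 to 50.1 in WT. The heavy genes with the highest mean share in WT lungs, named after their values were seen, were Ighv1-26 (4.97 ± 2.4%, SD, n = 10), Ighv1-18 (4.35 ± 2.43%) and Ighv9-3 (3.81 ± 2.0%). Over KO and WT lungs together, the highest means were those of Ighv3-6, Ighv1-55 and Ighv8-8, which took 3.3 ± 1.41%, 4.1 ± 0.911% and 1.97 ± 1.18% of heavy variable FPKM in WT AP lungs (SD, n = 5). That order is set by KO lungs with under 30 genes detected, where a single gene took up to 100% of the share. In WT lungs Igkv14-111 (7.3 ± 2.79%), Igkv10-96 (6.38 ± 1.83%) and Igkv1-117 (3.81 ± 2.79%) had the highest kappa means. Over both genotypes they were Igkv10-96, Igkv1-110 and Igkv14-111, which took 6.44 ± 2.13%, 3.56 ± 1.73% and 8.27 ± 3.47% in WT AP lungs. Iglv1 led the lambda genes with 67.2 ± 11.5% in WT AP lungs, and Iglv2 and Iglv3 took the rest.

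In colon the genotypes had different leading heavy genes. In KO colons they were Ighv3-6 (5.22 ± 5.21%, SD, n = 9), Ighv6-3 (4.84 ± 3.87%) and Ighv4-1 (3.84 ± 4.73%), and in WT colons Ighv1-81 (6.82 ± 3.89%, SD, n = 10), Ighv1-26 (6.47 ± 2.94%) and Ighv1-18 (4.55 ± 1.06%). Ighv6-3, Ighv4-1 and this order were named after the values were seen, and the SDs show that the neighbours in each order overlap. Over both genotypes Ighv1-26, Ighv1-81 and Ighv3-6 had the highest means. Ighv1-26 took 1.43 ± 0.826% in KO AP colons (SD, n = 4), against 5.2 ± 2.39% in WT AP colons (SD, n = 5), and 4.9 ± 2.83% in KO sham colons, against 7.73 ± 3.11% in WT sham colons. Ighv1-81 took 1.35 ± 0.84% in KO AP colons, against 9.43 ± 3.97% in WT AP colons. In sham colons Ighv3-6 took 6.43 ± 6.7% in KO, against 2.31 ± 0.51% in WT, with overlap. The Ighv1 family, with 43 of 84 heavy members, took 53.4 ± 3.14% in KO AP colons, against 68.7 ± 4.12% in WT AP colons. Under sham operation it took 50.8 ± 8.36% in KO, against 72.8 ± 4.74% in WT. The highest KO share, 58.5%, was below the lowest WT share, 62.7%. Of the 84 heavy members, 83 reached 1 FPKM in at least 4 WT colons, but 49 did so in at least 4 KO colons. The choice of genes thus leans to WT, and the family shares are a description only.

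**Figure D5:**
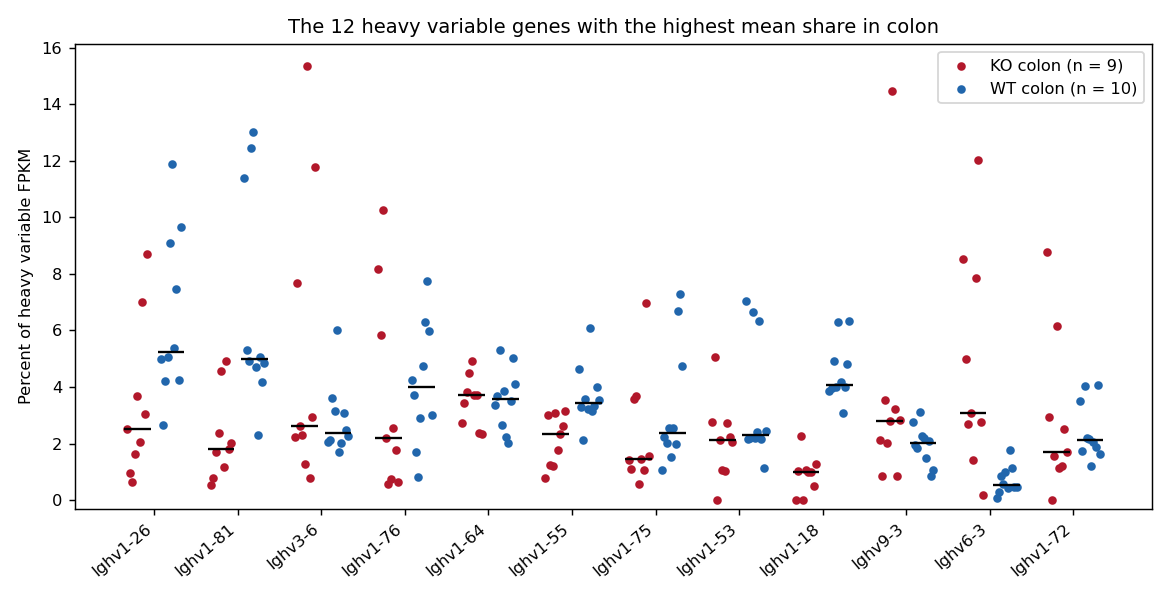
Share of heavy variable FPKM taken by the 12 heavy variable genes with the highest mean share over all colon libraries, in 9 KO and 10 WT libraries; points are libraries and lines are medians. Ighv1-81 and Ighv1-18 have higher medians in WT, and single KO libraries reach 15.4% for Ighv3-6.

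Of kappa genes, Igkv1-110 (6.93 ± 5.0%) had the highest mean in KO colons and Igkv10-96 (8.64 ± 2.63%) in WT colons, and Igkv10-96, Igkv1-110 and Igkv1-117 had the highest over both genotypes. Igkv10-96 took 6.33 ± 0.62% in KO sham colons, against 10.2 ± 1.94% in WT sham colons, without overlap, while Igkv1-110 took 7.52 ± 6.33% in KO, against 4.76 ± 3.04% in WT. Iglv1 took 71.8 ± 23.4% of lambda variable FPKM in KO AP colons, against 87.1 ± 6.74% in WT AP colons, and Iglv2 took 22.4 ± 23.8% in KO, against 9.8 ± 5.4% in WT. The likeness of heavy variable use between libraries, as Pearson's r over the shares of 84 genes, averaged 0.296 over the 36 pairs of KO colons and 0.603 over the 45 pairs of WT colons. Between KO and WT colons it averaged 0.283 over 90 pairs. The pairs share libraries and the KO shares rest on fewer reads.

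No member passed by limma in any comparison of AP with sham. In WT lungs 0 of 96 members passed, where 0.0814% of all genes did (0.025% higher, 0.0563% lower), and 20 had an unadjusted p under 0.05, with a median log2 difference of 0.31 over members and -0.01 over all genes. Igha differed by 0.75 and Igkc by 0.70 in WT lungs. In KO lungs 0 passed, where 0.0125% of all genes did, with 1 at an unadjusted p under 0.05. There Igha differed by -0.68 and Igkc by -0.90. In WT colons 0 of 185 passed, where 0% of all genes did, with 9 at an unadjusted p under 0.05. In KO colons 0 passed, where 0.04% of all genes did (0.02% each way), with 21 at an unadjusted p under 0.05. Of all genes, 1066 of 15978 had such a p in WT lungs and 2234 in KO lungs. In colon 938 of 15001 genes had it in WT and 2798 in KO. The difference between the genotypes in the AP response passed for no member either, where 0% of all genes passed in lung and in colon. At an unadjusted p under 0.05 were 15 members in lung, beside 1384 of all 15978 genes. In colon 17 members were, beside 2821 of all 15001 genes. The genotype difference of the AP response was -1.43 for Igha and -1.60 for Igkc in lung and -0.94 and -0.99 in colon. With array weights 27 of 96 members passed as higher in WT AP lungs than in WT sham lungs, where 4.92% of all genes did.

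Lists of B lineage genes were read beside the share of all genes that passed. Of 14 plasma cell genes tested in AP lungs, 4 were higher and 5 lower in KO, where 27.6% and 28.1% of all genes were. Fkbp11, an endoplasmic reticulum folding enzyme (log2 difference 1.91, SE 0.31, adjusted p = 5.66e-05), rose, while Prdm1, the plasma cell regulator (log2 difference -1.15, SE 0.15, adjusted p = 7.68e-06), and Pou2af1, a B cell coactivator (log2 difference -1.39, SE 0.26, adjusted p = 0.000175), fell. In sham lungs 5 of 14 were higher and 4 lower, where 28.8% and 30% of all genes were. Of 16 B cell genes tested in lung, 1 was higher and 6 lower in AP and 1 higher and 2 lower in sham. Vpreb3 had the lowest p of these genes in both treatments and rose (log2 difference 1.82, SE 0.23, adjusted p = 4.06e-06 in AP and 1.32, SE 0.23, adjusted p = 6.98e-05 in sham). Ms4a1, the B cell surface marker CD20, fell in both (log2 difference -1.47, SE 0.26, adjusted p = 0.000131 in AP and -0.65, SE 0.26, adjusted p = 0.0399 in sham). Cd79a, Cd79b and Pax5, which mark B cells, did not pass, with differences of -0.63, -0.62 and 0.07 in AP. The summed plasma cell list was 336 to 592 FPKM in KO lungs, against 287 to 343 FPKM in WT lungs, with 8 of 10 KO lungs above the highest WT lung. Abundant genes weigh most in such a sum. The median log2 difference of the 14 plasma cell genes tested was 0.02 in AP lungs and -0.04 in sham lungs. All 7 epithelial genes were higher and 4 of 6 endothelial genes lower in KO lungs in both treatments, and the summed epithelial list was 614 to 3009 FPKM in KO, against 358 to 457 FPKM in WT. Whether this bears on the immunoglobulin values was not tested.

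In colon none of 15 B cell genes passed in either treatment, where 18.3% of all genes passed in AP and 31.4% in sham. Of 15 plasma cell genes, 8 were lower in AP, among them Txndc5 (log2 difference -0.78, SE 0.14, adjusted p = 0.00209), Prdm1 (log2 difference -1.27, SE 0.24, adjusted p = 0.00247) and Mzb1 (log2 difference -1.99, SE 0.47, adjusted p = 0.00841), a chaperone of secreted IgM and IgA. In sham colons 5 were lower and 1, Fkbp11 (log2 difference 1.22, SE 0.27, adjusted p = 0.00317), was higher. Of 10 genes for IgA homing and survival factors, 4 were lower and 1 higher in AP, and Itgb7, an integrin chain of gut homing, fell (log2 difference -2.10, SE 0.51, adjusted p = 0.00967). Of 9 receptors for immunoglobulin, 5 were lower in AP and 4 in sham. Pigr, the receptor that carries IgA across the epithelium, differed by -0.24 (SE 0.17, adjusted p = 0.348) in AP and fell in sham (log2 difference -0.82, SE 0.16, adjusted p = 0.00154). Of 8 germinal centre and class switching genes, 1 was lower in AP, and in sham 1 was higher and 2 were lower.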

How the data were processed

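RNA was sequenced from 20 lung and 19 colon libraries. The deposited values are FPKM, which the authors supplied as 1 table for each tissue. The submitters' processing notes list HISAT2 2.1.0, StringTie 1.3.3b and mm39 with no role for each. Symbols came from a table of gene names (52081 of 55357 rows). The tests took the 15978 lung rows and 15001 colon rows that reached 1 FPKM in 4 or more libraries, as log2(FPKM + 1), a scale that understates changes of low genes, with limma 3.58.1 in R 4.3.3. The model had a mean per group, a variance trend, no covariate and Benjamini-Hochberg adjustment over all genes of the tissue at 0.05. It was tried on simulated data with independent, normally distributed noise and with changes only in genes above a set mean level. That simulation does not cover members at low levels. Whole reads could be recovered only for single-transcript genes, so no count test was run. Members and gene lists were chosen with earlier results of these data known. Variable genes were named by mean share in a tissue or by the largest passing differences. Shares, sums and figures used Python 3.11.15 with pandas and matplotlib. Sequences came from the GENCODE M21 transcripts with Biopython alignments. Replicate numbers of the groups did not pair libraries. Alternatives covered pseudocount, level rule, scale, array weights, replicate block and left-out libraries.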

Additional observations from a re-analysis of the deposited data

Results flagged for a closer look

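In 24 of 192 sets of 4 or 5 values (12.5%), 1 library lay far from the rest of its group by Dixon's criterion. The criterion flags about 1 in 20 sets of independent, normally distributed values. These sets hold untransformed values and share libraries, so no excess over that rate can be read from them. Colon KO AP replicate 5 was high for Igha (3813 FPKM, others up to 798), Igkc (3844 FPKM), Iglc2 (169 FPKM), Jchain (747 FPKM) and summed heavy constant FPKM (3934). Colon KO AP replicate 4 had the highest IgG share (6.73%) and the highest Jchain per Igha (0.251). Colon KO sham replicate 5 was high for Ighg2b (80.4 FPKM), Ighg2c (104.1 FPKM) and the IgG share (12.9%) and low for the IgA share (85.5%). Colon WT AP replicate 1 was low in summed heavy constant FPKM (1584). Colon WT sham replicate 4 was high for Ighg1 (95.0 FPKM) and replicate 3 for Iglc2 (121.5 FPKM).

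In lung WT sham replicate 1, Ighm was 101.4 FPKM, Jchain per Igha was 0.209 and the effective number of kappa variable genes was 28.5, where the others had 42.2 to 44.8. Lung WT sham replicate 5 had the lowest kappa variable FPKM per constant FPKM (0.773). Lung KO sham replicate 4 was high for Ighg2b (3.54 FPKM). Among KO AP lungs, replicate 1 was high for Igha (22.5 FPKM), replicate 2 for Ighg2b (0.432 FPKM), replicate 4 for Ighg1 (0.430 FPKM), and replicate 3 for Ighg2c (1.18 FPKM) and for the effective number of kappa variable genes (21.6).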

How the results depend on the processing

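The number of members passing between KO and WT lay between 80 and 136 in AP lungs, 69 and 95 in sham lungs, 85 and 135 in AP colons and 71 and 115 in sham colons under all alternatives, within 1.5 times the reported counts. The 136 exceeds the 96 members tested in lung in the main fit, so the number tested was not the same under all alternatives. Members that met the level through WT alone had to be lower in KO, so these counts are a description and support nothing. The TPM scale moved the median of all genes to -0.18 in AP lungs, -0.26 in sham lungs, -0.13 in AP colons and -0.15 in sham colons, with 92, 82, 124 and 93 members passing. Of all genes, 34.4%, 38.9%, 11.7% and 17.9% then passed as lower, and 18.6%, 18.1%, 3.61% and 8.33% as higher, in the same order. With array weights, 27 members passed as higher in AP than in sham in WT lungs (4.92% of all genes did), 1 in KO colons, and 1 in lung and 2 in colon for the genotype difference of the AP response. Of all genes, 2.42% passed as higher and 4.42% as lower in KO colons. For the genotype difference these shares were 0.645% and 1.28% in lung and 4.14% and 8.42% in colon. Without libraries under a correlation of 0.94, 1 passed in WT lungs. Leaving out 1 library gave 0 to 1 in WT lungs (1 without WT sham replicate 1), 0 to 4 in KO colons (4 without KO sham replicate 1) and 0 to 1 for the genotype difference in colon (1 without the same library). The cause was not tested. The share of all genes that passed is not given for the fits without 1 library or without the libraries under 0.94. Those counts are a description only. No direction of a passing result reversed.

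With the replicate block, 91 and 77 members passed between KO and WT in AP and sham lungs, 106 and 83 in AP and sham colons, and 0 in the other comparisons. The share of all genes that passed with the block is not given, so these counts are a description only. Same-numbered libraries did not deviate together. The correlation exceeded 0.1 in 6 of 30 pairs in lung and 7 of 27 in colon, and 4 of 20 lung and 3 of 19 colon libraries correlated best with their own number. The variable genes of KO lungs rest on 22 to 1060 reads.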

Other observations

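Lung WT sham replicate 1 differed from the other WT lungs in variable gene use. Igkv14-126, named after its values were seen, was at 50.8, 0.579, 0.647, 1.61 and 0.5 FPKM in WT sham lungs and made up 26.0% of kappa variable FPKM in replicate 1, against 0.372 to 1.26% in the other 4. Ighv11-2, which is no member because it reached 1 FPKM in only 2 lung libraries and was also named after its values were seen, was at 27.6, 0.937, 0.682, 1.22 and 0.953 FPKM in the same lungs. In the other WT lungs, those with AP, it was at 0 to 0.857 FPKM, and it was at 0 in all KO lungs. As background, these genes are known to be paired in B-1 cells that bind phosphatidylcholine. Ighm in replicate 1 was 101.4 FPKM, above the 24.1 to 29.1 FPKM of the other 4 WT sham lungs.

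Ighe, the IgE constant gene, did not reach the level of a member. It was above 0 in none of the 10 KO lungs and reached at most 0.156 FPKM in WT lungs, and at most 0.716 FPKM in KO colons and 0.411 FPKM in WT colons. The J chain per Igha ratio was 0.129 to 0.251 in KO colons, against 0.120 to 0.181 in WT colons.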
